A study of Homo sapiens with 8 samples.

Results

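The regions described are clustered binding sites of the progesterone receptor (PR) in T47D MTVL WT cells, an established human breast cancer line with the role of control in the study, after 60 min of 10 nM R5020, a synthetic progestin. Members were chosen by the positions of the called PR peaks in that one library. Peaks on chromosomes 1 to 22 and X that did not overlap a peak of the A1-2 input DNA were chained while neighbours lay at most 12.5 kb apart, and chains of 5 or more peaks were kept. This gave 862 chains, which held 5757 of the 43070 PR peaks used (13.4%). Another 18581 peaks stood in 7610 chains of 2 to 4, and 18732 peaks were unchained. Positions are in the hg19 build, counted from 1.

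The study mapped PR and the glucocorticoid receptor (GR) by ChIP-seq, in which DNA held by a protein is recovered with an antibody and sequenced. The chains were compared with PR peaks of T47D A1-2 cells after 10 nM R5020, with GR peaks of A1-2 cells after 10 nM dexamethasone (Dex, a synthetic glucocorticoid) or 10 nM R5020, all at 60 min, and with PR peaks of MTVL cells without hormone. Per the design text, the cell line under study, taken here as A1-2, makes GR as well as PR. All cells had been kept 48 h in hormone-stripped serum and 24 h without serum. The labels do not say how either receptor is driven in A1-2 cells, or whether a line is a single clone. Each condition had 1 library, so there is no replicate check and no p-value. Intervals are 95% intervals that cover counting error only, and for peaks in chains they treat the chain as the unit. Read depth was unknown.

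PR and GR are steroid receptors that move to chromatin once hormone binds them, and they recognise the same kind of DNA element. Many of their sites lie in enhancers away from promoters, and enhancers of genes that mark a cell type often stand in groups. The distance used for chaining is a common choice for joining enhancers into larger units. Here only called peaks were joined, without ranking the joined regions by signal, so the chains are groups of PR peaks and are not called super-enhancers.

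Most chains were small. Of the 862, 365 had 5 peaks, 292 had 6 or 7, 149 had 8 to 10, and 56 had 11 or more, with a median of 6 and a maximum of 23. The span from the first to the last peak had a median of 26.2 kb (quartiles 20.0 and 35.1 kb) and reached from 5.10 to 122 kb. Together the chains spanned 25.02 Mb, of which the peaks themselves covered 4.98 Mb (19.9%). Neighbouring peaks in a chain stood a median of 3.16 kb apart, well inside the limit, and 37.4% of the 4895 gaps were under 2 kb. The limit still mattered for some, since the largest gap was within 1 kb of the limit in 126 chains, and 68 chains had a further peak less than 1 kb beyond it that was left outside.

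**Figure D1:**
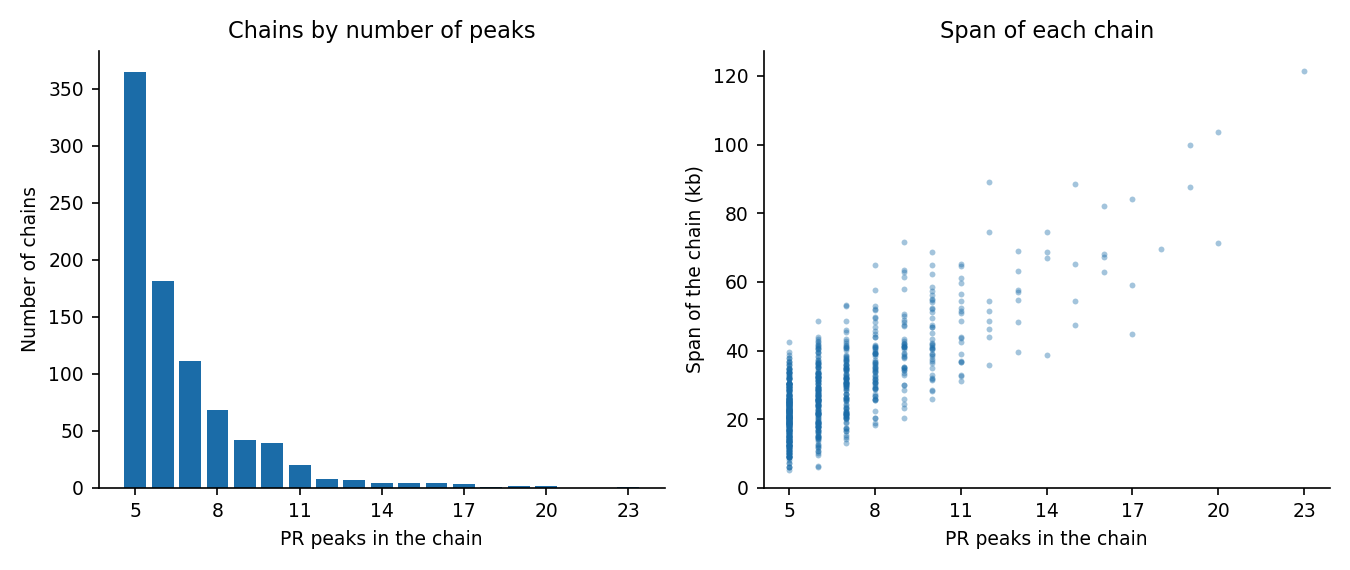
Number of chains by the number of PR peaks they hold (left) and the span of each chain in kb against its number of peaks (right, 1 point per chain). Chains of 5 peaks number 365, and the chain of 23 peaks spans 122 kb.

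The chains with the most peaks lay on several chromosomes. The one of 23 peaks, at chrX:9965335-10086849, had scores from 101 to 3195 with a median of 438. The score is the peak caller's own value, larger for stronger evidence, and scores near 3100 are a ceiling at which many peaks are tied. Chains of 20 peaks lay at chr14:50407665-50511462 (median score 351) and at chr10:79123259-79194484 (median 1030). Chains of 19 peaks lay at chr6:12270722-12370736 (median 829) and at chr17:39618741-39706359 (median 237). The chain on chromosome 17 was the only one of the 10 with the most peaks in which no peak reached 3100, its highest score being 2831. The next were at chr7:34059013-34128632 (18 peaks), and at chr5:35159266-35243547, at chr2:11664365-11723511 and at chr15:99383110-99427865 (17 peaks each). The chain on chromosome 2 stood out for strength, with a median score of 2075 and 5 peaks at the ceiling.

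Clustered peaks scored higher than unchained ones in the library that defined them, which is given as a description. The median score was 471 (quartiles 199 and 1403) for the 5757 clustered peaks, 344 for peaks in chains of 2 to 4 and 262 (152 and 593) for unchained peaks. Scores of 3100 or more were found in 10.1% of clustered and 2.25% of unchained peaks. Weak peaks were present in chains as well, 25.1% scoring under 200 compared with 38.7% of the unchained peaks. Clustered peaks were also wider, with a median of 751 bp against 641 bp.

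The highest and lowest scores of a chain follow in part from taking 5 or more peaks, and they are given as a description. The highest score in a chain had a median of 2976 and the lowest a median of 130. In 411 chains (47.7%, 44.3 to 51.1) at least 1 peak was at the ceiling, in 131 chains 2 or more were, and in only 19 chains (2.20%, 1.33 to 3.42) did every peak stay under 500. The strongest peak was the first or last of its chain in 237 chains (27.5%). Averaged over chains, 32.6% of a chain's peaks stand at an end. At the threshold of the rule, the peaks of chains of 4, just outside, had a median score of 382, and those of chains of 5, just inside, one of 431.

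Among the 10 chains with the most peaks, the number found in the PR list of A1-2 cells ranged from 9 of 18 to 15 of 16, and the number at GR Dex peaks from 5 of 20 to 14 of 16. The highest of both were in the chain at chr14:95725904-95808148, where the only peak missing from the A1-2 PR list scored 257. The lowest share found was in the chain at chr7:34059013-34128632, where peaks of 1680 and 2050 were not found while peaks of 185 and 235 were. In the chain on chromosome X, 16 of 23 peaks were found, and its 3 peaks at the ceiling were all at GR Dex peaks too.

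Several chains show how peak strength and the A1-2 lists varied along a stretch of DNA. In the chain at chr2:11664365-11723511, 15 of 17 peaks were found in the PR list of A1-2 cells and 11 lay at GR Dex peaks. The missing peaks scored 257 and 374 and each stood beside a peak at the ceiling, whereas peaks of 122 and 147 farther along were found. In this chain the order of the scores was not the order of sharing.

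In the chain at chr10:79123259-79194484, 12 of 20 peaks were found in A1-2 cells and 5 lay at GR Dex peaks. The 8 peaks not found scored from 103 to 1078, and the lowest score of a peak found was 298. Of the 5 at GR Dex peaks 4 were at the ceiling, and the fifth scored 1026. The following chain, 43.2 kb away at chr10:79237726-79267686, had the most peaks of those in which every peak was at a GR Dex peak. Its 9 scores in order were 1618, 141, 491, 1585, 146, 435, 3100, 822 and 3100. Only the peaks of 141 and 146 were missing from the A1-2 PR list. The chains lay close together, with 5 of 20 peaks against 9 of 9 at GR Dex peaks. The chain of 9 was named for GR at every peak, so this contrast follows in part from that choice.

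In the chain at chr14:74190306-74253286 all 16 peaks were found in the A1-2 PR list, down to a score of 143, and 9 lay at GR Dex peaks. The 9 scored from 267 to 2741 and the other 7 from 143 to 360. GR overlap there was thus mostly at the stronger peaks. The chain at chr20:30251412-30308955 likewise had all of its 13 peaks found, from 118 to the ceiling, with 8 at GR Dex peaks.

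The chain at chr11:101196393-101229085 had the most peaks of those without a GR Dex peak, 11 in all, which included one of 3100 and one of 1815. Of these 11 peaks 7 were found in the A1-2 PR list, with scores from 173 up, and the missing ones scored from 109 to 363. The peak of 1815 also overlapped a PR peak of untreated MTVL cells.

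The chain at chr9:12889392-12917319 was absent from both A1-2 lists. Its 6 scores in order were 786, 130, 273, 2695, 272 and 202, so that a strong peak was missing together with weak ones. Chains of 6 peaks with none in the A1-2 PR list also lay at chr10:34947740-34988285 (highest score 516) and chr10:35053527-35084324 (highest score 2111), 65.2 kb apart, and at chr12:10019446-10036319 (highest score 1599). None of these chains had a peak at a GR Dex peak.

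**Figure D2:**
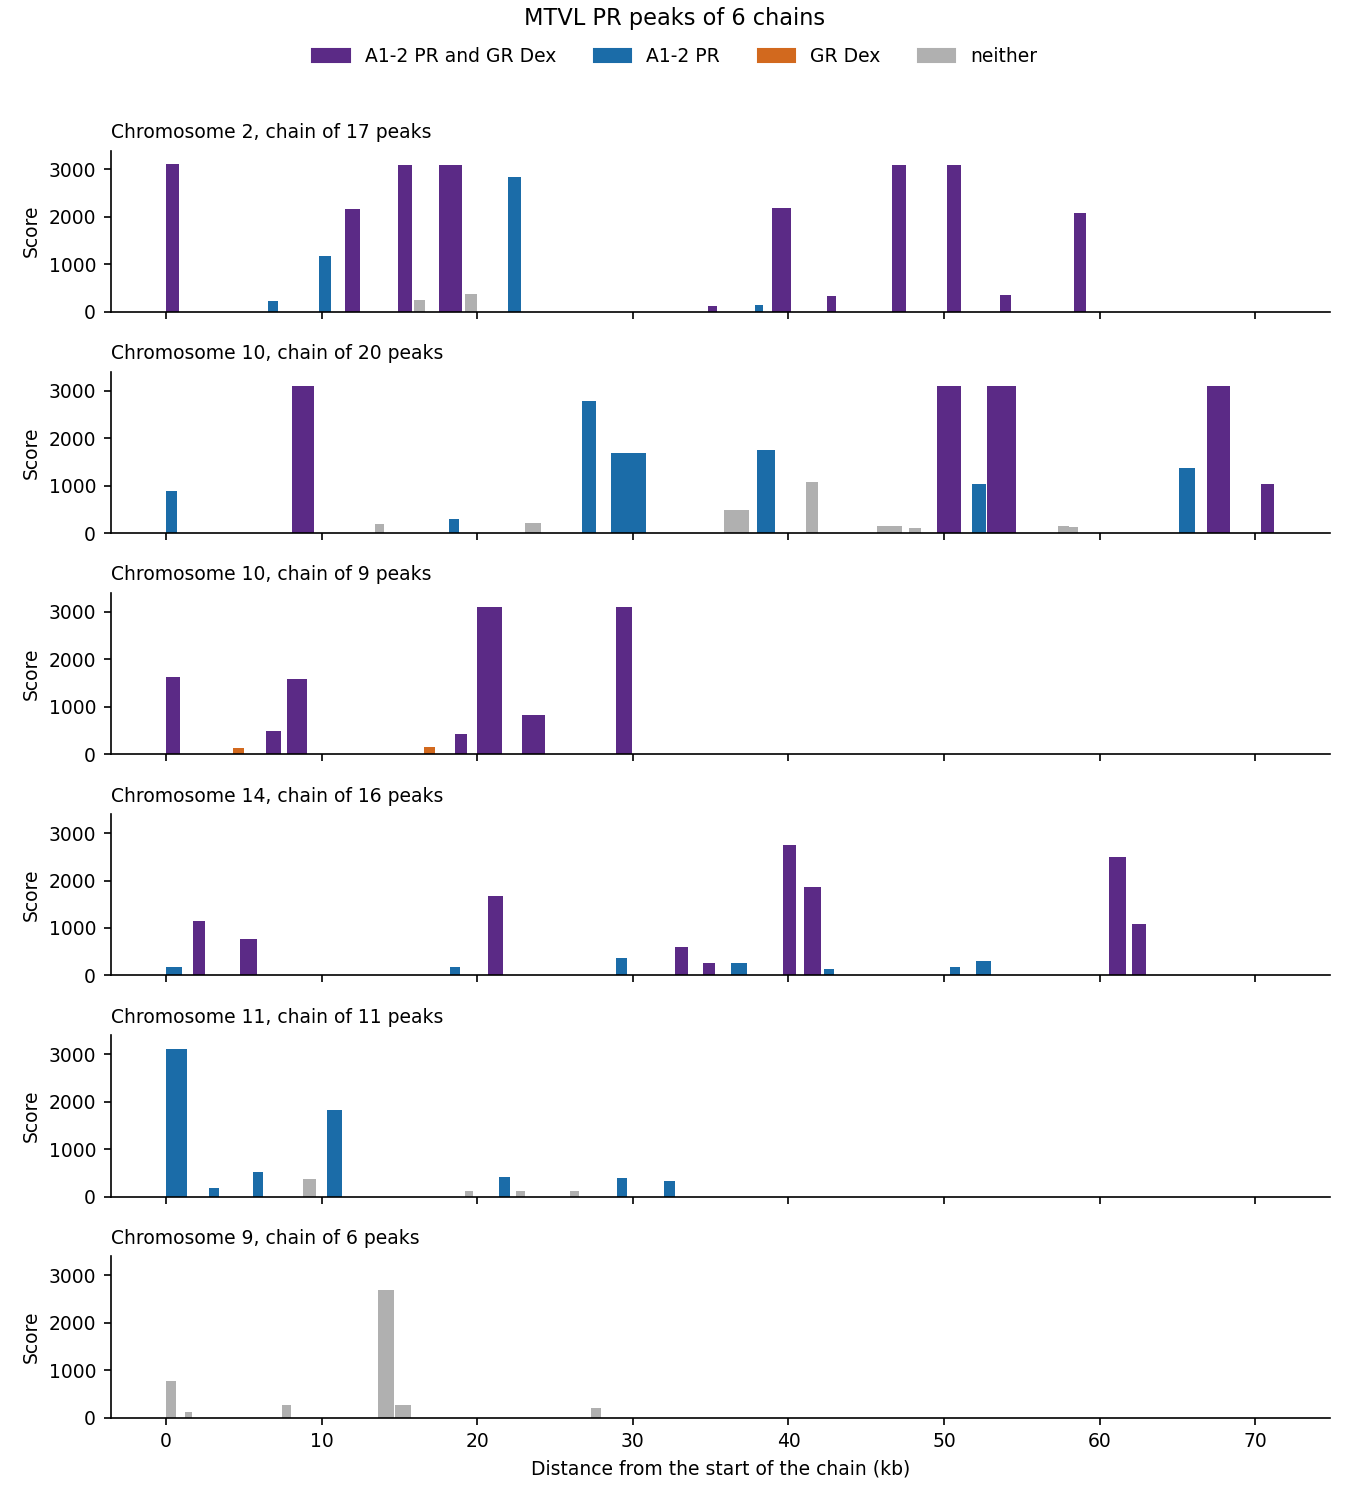
PR peaks of MTVL cells in 6 chains, with the distance from the start of the chain in kb on the horizontal axis and the deposited score as bar height. Each bar is as wide as its peak, and colours show overlap with the A1-2 PR list after R5020, the GR list after Dex, both or neither. The chain of 16 peaks on chromosome 14 has a counterpart at every peak, and the chain of 6 peaks on chromosome 9 has none.

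PR sites that A1-2 cells shared were more frequent among clustered than among unchained peaks. Of the 5757 clustered peaks, 3649 overlapped an A1-2 PR peak after R5020 (63.4%, 61.8 to 64.9), compared with 9115 of 18732 unchained peaks (48.7%, 47.9 to 49.4) and 53.8% of all 43070 peaks. The difference of 14.7 percentage points (12.9 to 16.5) became 2.70 points (1.20 to 4.20) when each clustered peak was set against unchained peaks of its own decile of the MTVL score. The matched difference was 1.17 points (0.261 to 2.08) for peaks in chains of 2 to 4. In the fifth decile 49.9% of clustered and 44.2% of unchained peaks were found, and in the lowest decile 18.0% and 18.4%. The interval of the matched difference included 0 when peaks had to have midpoints within 200 bp (0.152 points, -1.45 to 1.75), when every list was limited to scores of at least 200 (2.09, -0.018 to 4.20) and when peaks were matched within 5 Mb segments (1.43, -0.184 to 3.05). Clustered peaks had the larger median width in each of the 10 deciles, and with width matched as well the difference was 1.96 points (0.447 to 3.47).

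The share found was somewhat higher in larger chains, without a match on score. It was 62.0% (59.4 to 64.6) in chains of 5 peaks, 63.0% (60.2 to 65.7) in chains of 6 or 7, 63.5% (60.2 to 66.8) in chains of 8 to 10 and 67.5% (63.1 to 71.9) in chains of 11 or more. The intervals of all 4 sizes overlapped, which does not show the shares to be equal. The median score was 431 in chains of 5 and 574 in chains of 11 or more. Chains of 4, just outside the rule, had 58.1% (56.1 to 60.1).

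Seen by chain, 757 of 862 chains had some peaks found in A1-2 cells and others not. With 63.4% of clustered peaks found and 5 or more in a chain, such counts follow in part from the share per peak, and they are given as a description. At least 1 peak was found in 850 chains (98.6%, 97.6 to 99.3), every peak in 93 (10.8%, 8.80 to 13.1) and none in 12 (1.39%, 0.721 to 2.42). The median chain had 62.5% of its peaks found, with quartiles of 42.9% and 80.0%. The peaks not found were mainly weak. The strongest peak of the chain was found in 815 chains (94.5%, 92.8 to 95.97) and the weakest in 249 (28.9%, 25.9 to 32.0). In 370 chains (42.9%, 39.6 to 46.3) the span still held 5 or more A1-2 PR peaks. Of the 3818 A1-2 PR peaks in the spans, 117 in 89 chains lay at no MTVL peak. The spans were chosen for being dense in MTVL peaks, so this is a description. The share over all A1-2 PR peaks is not given.

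**Figure D3:**
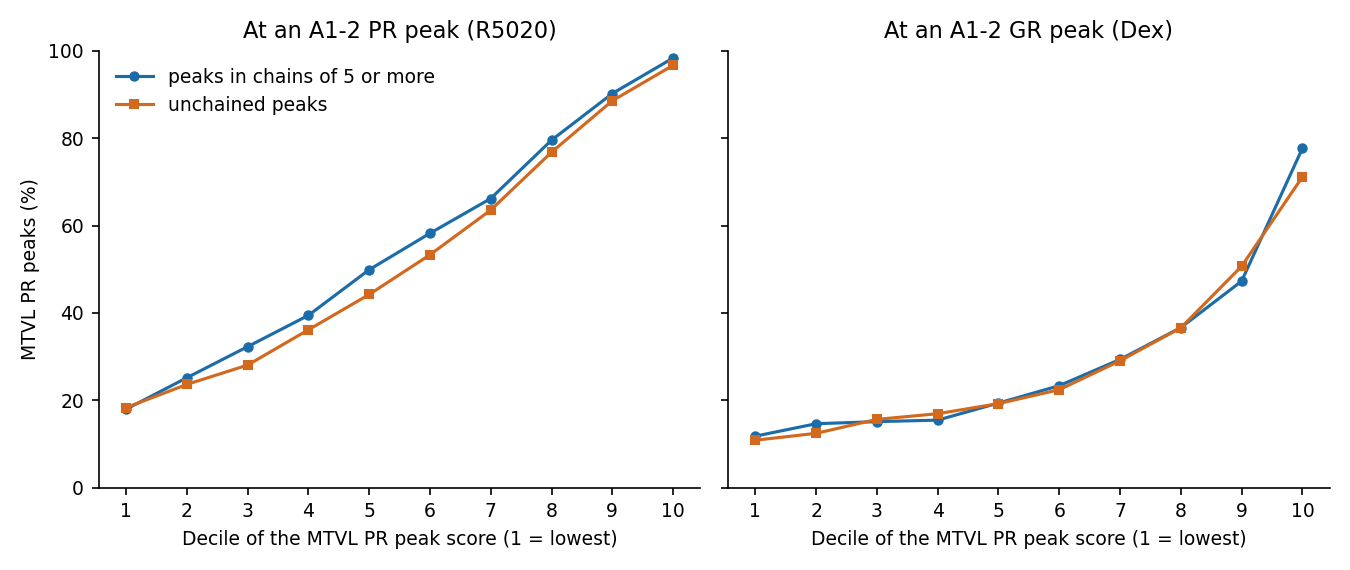
Share of MTVL PR peaks that overlap an A1-2 PR peak after R5020 (left) or an A1-2 GR peak after Dex (right), in percent, by decile of the MTVL score, for peaks in chains of 5 or more and for unchained peaks. The lines run close together, at 49.9% and 44.2% in the fifth decile on the left and at 19.4% and 19.3% on the right.

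**Figure D4:**
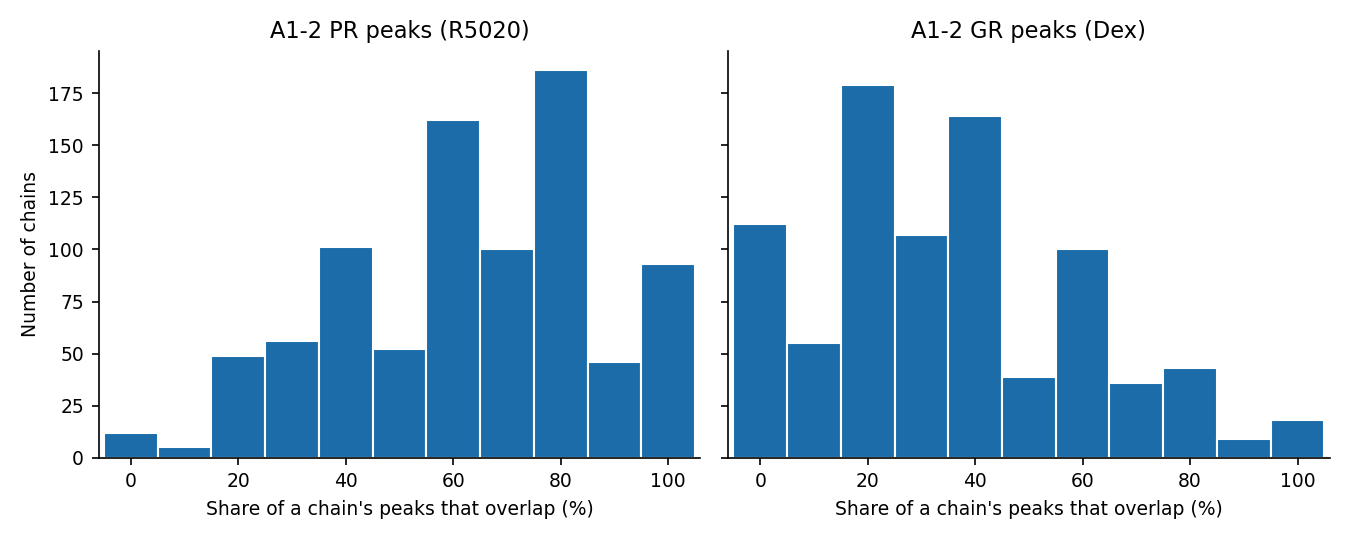
Number of chains by the share of their peaks, in percent, that overlap an A1-2 PR peak after R5020 (left) or an A1-2 GR peak after Dex (right), in classes of 10 points. The 12 chains with no A1-2 PR peak and the 112 with no GR Dex peak are at the left end of their panels.

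The A1-2 PR peaks that matched clustered sites scored higher in their own list than those at unchained sites. Their median A1-2 score was 375 for 3701 peaks, compared with 254 for the 9190 at unchained MTVL peaks and 244 for all 28262. At the ceiling were 5.38% of the former and 1.41% of the latter. These A1-2 scores were not matched for the MTVL score.

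The A1-2 list chained by the same rule gave 462 chains of 5 or more peaks, a number that moves with the length of the list. Of these 336 (72.7%) overlapped an MTVL chain, and of the MTVL chains 334 (38.7%) overlapped an A1-2 chain. GR Dex peaks gave 204 chains, of which 115 (56.4%) overlapped 115 MTVL chains (13.3%). Any overlap of the spans counted, and no background share for such overlaps is given. By peak, 13.1% of the A1-2 PR list and 11.2% of the GR Dex list lay at clustered MTVL peaks.

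GR Dex peaks were likewise more frequent at clustered PR peaks, and most of the difference was gone between peaks of like score. Of the clustered peaks 2046 overlapped a GR Dex peak (35.5%, 33.9 to 37.2), compared with 4753 unchained peaks (25.4%, 24.8 to 26.0) and 29.5% of all peaks. Within deciles of the MTVL score the difference was 0.982 points (-0.674 to 2.64). For peaks in chains of 2 to 4 the matched difference from unchained peaks was 1.98 points (1.04 to 2.92). The deciles differed in direction. Clustered peaks were lower in the third (15.1% against 15.7%), the fourth (15.5% against 17.0%) and the ninth (47.3% against 50.7%), and in the highest they had 77.7% against 71.1%. The interval excluded 0 on the upper side with chains built at gaps of up to 20000 bp (1.72 points, 0.303 to 3.14) and on the lower side with midpoints within 200 bp (-1.69, -3.25 to -0.134). By size the share was 35.5% (32.8 to 38.1) in chains of 5 peaks, 35.6% (32.7 to 38.5) in chains of 6 or 7, 33.5% (30.0 to 37.1) in chains of 8 to 10 and 39.1% (34.3 to 43.9) in chains of 11 or more, and these intervals overlapped.

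By chain, most clusters were mixed in GR overlap, 732 of 862 having some peaks at GR Dex peaks and others not. As for PR, these counts follow in part from the share per peak. At least 1 peak was at a GR Dex peak in 750 chains (87.0%, 84.6 to 89.2), every peak in 18 (2.09%, 1.24 to 3.28) and none in 112 (13.0%, 10.8 to 15.4). The strongest peak of a chain was at a GR Dex peak in 68.0% (64.7 to 71.1) of chains and the weakest in 16.6% (14.2 to 19.2). Besides the chain on chromosome 10, chains with GR at every peak included those at chr22:46205243-46240076 and at chr14:61980582-62013001, with 7 peaks each. Chains of 10 peaks with GR at none lay at chr4:16003784-16060993, at chr12:15053413-15100974 and at chr1:224384688-224425228, where 3, 4 and 3 peaks were found in the A1-2 PR list. Of the 2184 GR Dex peaks in the spans, 119 (5.45%) lay at no MTVL PR peak. This too is a description, since the spans were chosen for dense MTVL peaks. The share over all GR Dex peaks is not given.

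Within the clusters, PR peaks at GR Dex peaks were nearly always PR peaks of A1-2 cells too. Of the 2046, 1953 were found in the A1-2 PR list (95.5%, 94.5 to 96.3) and 93 were not. Of the 3711 clustered peaks away from GR Dex peaks 1696 were found (45.7%, 44.1 to 47.3). The former had a median MTVL score of 1364 and the latter one of 302, and both A1-2 lists come from the same line. These intervals are exact binomial ones over peaks and are too narrow for peaks of 1 chain. Unchained peaks showed the same order, with 89.1% and 34.9%.

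Overlap with the A1-2 lists was shared by neighbours in a chain. A clustered peak was found in A1-2 PR in 67.2% of 3132 cases where the preceding peak of its chain was found, and in 56.2% of 1763 cases where it was not. The median scores were 477 and 476, and within deciles of the score the difference was 10.5 points. For GR Dex the shares were 44.6% of 1765 and 30.7% of 3130, with median scores of 506 and 464 and a difference of 12.9 points within deciles. Consecutive pairs share peaks, so no interval is given. The match was on score only, not on chromosome, and a wide A1-2 peak could meet both neighbours. By chromosome, the share of clustered peaks found in A1-2 PR ran from 47.8% on chromosome 12 to 80.3% on chromosome 20.

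Few clustered peaks lay at PR peaks called without hormone in MTVL cells, but the share was higher than among unchained peaks. Scores in the untreated list were low, with a median of 143 and none above 511. Of the clustered peaks 79, in 63 chains, overlapped a PR peak of untreated MTVL cells (1.37%, 1.02 to 1.73), compared with 44 unchained peaks (0.235%, 0.171 to 0.315) and 0.56% of all peaks. The matched difference was 0.893 points (0.508 to 1.28), and it was 0.768 points (0.362 to 1.18) when peaks were also matched on width. Seen from the untreated list, 69 of its 219 peaks (31.5%, 25.4 to 38.1) lay at clustered peaks, which make up 13.4% of the R5020 list, 105 (47.9%) at peaks of chains of 2 to 4, which make up 43.1%, and 44 at unchained peaks, which make up 43.5%. Of the 79 clustered peaks 61 were in the highest score decile, where 5.65% of clustered and 1.80% of unchained peaks lay at an untreated peak and the median scores were 3100 and 2741. Among peaks at the ceiling alone, a comparison added after seeing the data, the shares were 8.39% (49 of 584, exact interval over peaks 6.27 to 10.9) and 3.09% (13 of 421, 1.65 to 5.22). The strongest peak of the chain made up 40 of the 79. In A1-2 cells 73 of the 79 were PR peaks after R5020 (92.4%) and 63 were GR peaks after Dex (79.7%). For all clustered peaks of the highest score decile these shares were 98.3% and 77.7%. The PR share of the 79 was thus below that of the decile, and their GR share was close to it. By size, the share at an untreated peak was 1.08% (0.638 to 1.52) in chains of 4, just outside the rule, and 1.04% (0.537 to 1.55) in chains of 5. It was 1.396% (0.765 to 2.03) in chains of 6 or 7, 0.838% (0.234 to 1.44) in chains of 8 to 10 and 3.04% (1.58 to 4.50) in chains of 11 or more, so it did not rise steadily with size. The median width in the untreated list was 1242 bp, so a single untreated peak could meet several clustered ones.

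The short list of GR peaks of A1-2 cells after R5020 overlapped 62 clustered peaks (1.08%, 0.746 to 1.41) and 70 unchained peaks (0.374%, 0.291 to 0.472), against 0.59% of all peaks. Within deciles of the score the difference was 0.256 points (-0.136 to 0.649).

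The share of PR peaks that stood in chains differed between chromosomes. At a fixed gap this share moves with how densely the peaks of a chromosome lie, and density was not matched. The share of MTVL PR peaks in chains of 5 or more was highest on chromosome 16 (20.5%, 256 of 1250 peaks) and chromosome 14 (17.6%), and lowest on chromosome 13 (4.52%, 58 of 1284) and chromosome X (6.56%). Chromosome 13 held only 10 chains and chromosome X only 9. In each of the 23 chromosomes the clustered peaks were found in A1-2 PR more often than the unchained ones, from 47.8% against 43.8% on chromosome 12 to 80.3% against 68.6% on chromosome 20. GR Dex overlap was higher in the clustered peaks of 22 chromosomes, chromosome 16 being the exception with 40.2% against 42.7%. These shares per chromosome were not matched on score. At 59 places neighbouring chains had at most 50 kb, and no other MTVL PR peak used, between them. Chains as close but with a further peak between them were not counted. One such pair, 17.5 kb apart, was on chromosome 14, from 95648565 to 95708355 with 11 of 11 peaks in the A1-2 PR list and from 95725904 to 95808148 with 15 of 16. In 7 chains (0.812%, 0.327 to 1.67) the span held a peak of the A1-2 input DNA. Without these 7 chains 63.4% of clustered peaks were found in A1-2 PR and 35.6% at GR Dex peaks. How many copies of each chromosome the line carries was not examined.

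**Figure D5:**
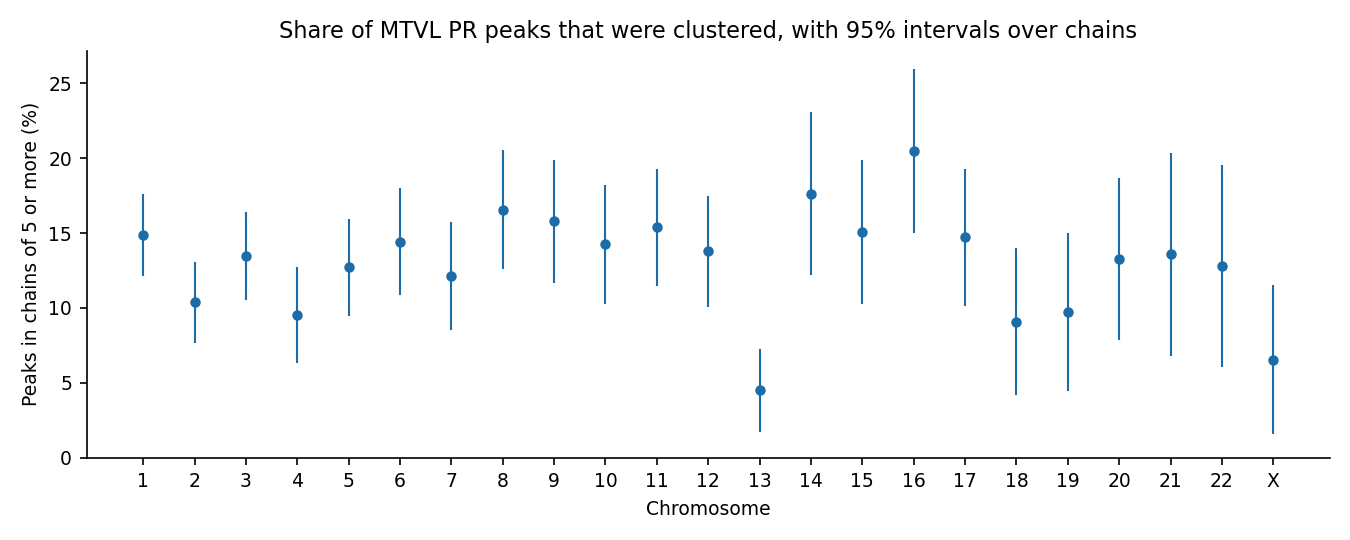
Share of the MTVL PR peaks of each chromosome that stood in chains of 5 or more, in percent, with 95% intervals that treat the chain as the unit. Chromosome 16 is highest at 20.5% and chromosome 13 lowest at 4.52%.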

How the data were processed

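Each of the 8 deposited files lists the peaks of 1 library with a deposited score, the lowest being 100. The score was assumed to be a p-value on a negative log10 scale times 10, which no file header states. Bowtie 1.1.1, bedtools, MACS 1.4.2 and hg19 are named in the submitters' processing notes, without settings or the control library. Of 43398 deposited MTVL R5020 peaks 43070 were used, and peaks at A1-2 input peaks were left out of every receptor list. No input of MTVL cells was used here. Peaks were shared at an overlap of 1 bp. Matched differences set each clustered peak against the unchained share of its score decile, with the chain as the unit of error, and were tested on simulated data. The members and the comparisons were chosen with earlier results of these data known. Chains named are the 10 with most peaks and, of those with every or no peak in the A1-2 PR or GR Dex list, the 5 with most peaks, not all of which are printed. Alternatives were gaps of 5000 and 20000 bp, chains of 4 or more, scores of at least 200, input peaks kept, other overlap rules and other strata. The gene and promoter tables used here are of another build, so 0 genes were placed and no sequence is printed. Computations used Python 3.11.15, numpy 2.4.6, pandas 2.3.3 and scipy 1.17.1.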

Additional observations from a re-analysis of the deposited data

How the results depend on the processing

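Of 54 alternatives over 6 results, 34 changed neither a call nor, beyond its interval or 1.5 times, a value, 15 moved a value further, and 5 changed whether the interval of a difference lay above 0. The number of chains, which follows from the rule, was 272 with gaps of at most 5000 bp, 1408 with 20000 bp, 1671 with chains of 4 or more and 407 with scores of at least 200. The share of clustered peaks found in A1-2 PR was 66.9%, 61.4%, 61.5% and 59.4% in that order, and 57.3% with midpoints within 200 bp. The share at GR Dex peaks was 39.9% with gaps of at most 5000 bp, 28.5% with scores of at least 200 and 30.2% with midpoints within 200 bp. The median score of clustered peaks was 799 where only scores of at least 200 were kept, against 493 for unchained peaks. Without strata the difference from unchained peaks was 14.7 points for A1-2 PR and 10.2 points for GR Dex. The interval for A1-2 PR came to include 0 with scores of at least 200 (2.09 points), midpoints within 200 bp (0.152) and quintiles of the score within 5 Mb segments (1.43). That for GR Dex came to exclude 0 with gaps of 20000 bp (1.72 points) and without strata, and also with midpoints within 200 bp, on the other side (-1.69). The cause was not tested. The 5 Mb segments, 50 score classes and classes of width were chosen after seeing the data. Depth of the libraries was unknown, so a peak missing from a list may lie just under its threshold.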
